A study of Homo sapiens with 6 samples.

Results

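The mitochondrial ribosomal protein genes are the nuclear genes MRPL and MRPS followed by a number, and 78 of the 67051 gene identifiers in the count tables were protein-coding genes with such a symbol. They comprised 51 genes for proteins of the large subunit, 26 for the small subunit, and MRPS36, whose product is now known as a subunit of the alpha-ketoglutarate dehydrogenase complex. By textbook assignment, 46 of the ribosomal members were classed as having a bacterial homologue and 31 as mitochondria-specific. These classes are approximate: MRPS18A and MRPS18B were put in the second, but MRPS18C, of the same family name, in the first. MRPS30 and MRPS18A were counted with the large subunit, where their products sit. The genes were measured by PRO-seq (precision run-on sequencing), which lets engaged RNA polymerases in isolated nuclei extend their transcripts with biotin-labelled nucleotides, so that the reads mark transcription in progress and not the amount of stable mRNA. The material was SH-SY5Y, a human neuroblastoma cell line, either without treatment or treated at 0.1 mM with MPP+, a neurotoxic pyridinium that collects in mitochondria, where it blocks respiratory complex I. There were 2 untreated libraries (controls), 2 after 0.5 h of MPP+ and 2 after 24 h. The labels name no separate cultures behind the 2 libraries of a group and no vehicle in the untreated cells, so any p-value below reflects the difference between 2 libraries of a kind, and that difference may be a technical one.

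Mitochondrial ribosomes translate the few proteins that mitochondrial DNA encodes, all of them core subunits of the respiratory chain and the ATP synthase. The rRNAs of both subunits are transcribed inside the organelle from mitochondrial DNA, while every one of their proteins is transcribed in the nucleus, translated in the cytosol and imported. The protein genes are scattered over the genome, are expressed in nearly all tissues, and are commonly discussed with the factors NRF1, GABP (of the ETS family) and YY1, which act at many nuclear genes for mitochondrial proteins.

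The 78 genes lay on 21 chromosomes, and their median length from start to end was 11937 bases, against 27136.5 bases for all protein-coding genes (GENCODE 29 models, hg38). RefSeq start sites on GRCh38.p14 were matched for 69 of them. No promoter was given for MRPL2, MRPL10, MRPL13, MRPL15, MRPL21, MRPL23, MRPL35, MRPS28 and MRPS36. The windows ran from 250 bases before to 50 bases after the start. Exact matches were counted on either strand. The letters searched for the ETS family were CCGGAAG, and those for YY1 were AAGATGG. For NRF1, the letters TGCGCA were searched and are called the NRF1 core here. The full palindromic NRF1 motif was searched separately. It does not hold the core letters as an unbroken run, so its count is not a subset of the core count. SP1 was represented by GGGCGG and the TATA box by TATAAA. The 6 windows below belong to genes that were among the 5 largest differences of a comparison (mean of at least 50 counts) and hold several matches to the ETS, YY1 and NRF1 letters. MRPL51, MRPL52 and MRPS22 have 3 matches each, the most among those genes. MRPS21, MRPL45 and MRPS10 have 2 each, as do MRPL47 and MRPS18C, which are not shown; the choice within this tie was made with the values known. Letters in capitals mark those matches, on whichever strand, and the rest is in lower case. Each window is printed 5′ to 3′ on the strand of its gene. They are MRPL51 (chr12:6493213-6493512, minus strand), MRPL52 (chr14:22829637-22829936, plus strand), MRPS22 (chr3:139343744-139344043, plus strand), MRPS21 (chr1:150293611-150293910, plus strand), MRPL45 (chr17:38296918-38297217, plus strand) and MRPS10 (chr6:42217812-42218111, minus strand).
MRPL51: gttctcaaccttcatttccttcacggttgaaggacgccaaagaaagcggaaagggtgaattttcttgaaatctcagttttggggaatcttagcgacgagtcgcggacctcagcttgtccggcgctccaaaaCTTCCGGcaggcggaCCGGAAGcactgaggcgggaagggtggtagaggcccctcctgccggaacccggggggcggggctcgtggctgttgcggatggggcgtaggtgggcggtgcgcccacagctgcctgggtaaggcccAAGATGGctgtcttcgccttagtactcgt
MRPL52: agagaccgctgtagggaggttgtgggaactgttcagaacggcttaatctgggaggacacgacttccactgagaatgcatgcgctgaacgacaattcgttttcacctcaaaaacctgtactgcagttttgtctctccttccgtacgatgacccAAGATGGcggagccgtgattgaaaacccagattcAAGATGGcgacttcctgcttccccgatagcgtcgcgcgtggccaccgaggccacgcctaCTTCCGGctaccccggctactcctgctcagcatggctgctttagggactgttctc
MRPS22: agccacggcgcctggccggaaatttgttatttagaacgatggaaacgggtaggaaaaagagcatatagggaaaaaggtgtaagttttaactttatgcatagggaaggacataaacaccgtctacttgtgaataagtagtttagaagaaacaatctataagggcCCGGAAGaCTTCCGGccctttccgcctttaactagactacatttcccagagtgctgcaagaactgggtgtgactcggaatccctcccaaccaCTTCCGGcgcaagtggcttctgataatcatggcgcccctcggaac
MRPS21: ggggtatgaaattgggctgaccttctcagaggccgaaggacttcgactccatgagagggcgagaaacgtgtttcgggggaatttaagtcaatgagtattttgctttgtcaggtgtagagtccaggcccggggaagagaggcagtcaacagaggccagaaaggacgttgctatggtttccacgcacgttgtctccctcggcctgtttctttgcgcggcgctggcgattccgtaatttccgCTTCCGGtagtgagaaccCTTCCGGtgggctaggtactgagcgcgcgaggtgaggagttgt
MRPL45: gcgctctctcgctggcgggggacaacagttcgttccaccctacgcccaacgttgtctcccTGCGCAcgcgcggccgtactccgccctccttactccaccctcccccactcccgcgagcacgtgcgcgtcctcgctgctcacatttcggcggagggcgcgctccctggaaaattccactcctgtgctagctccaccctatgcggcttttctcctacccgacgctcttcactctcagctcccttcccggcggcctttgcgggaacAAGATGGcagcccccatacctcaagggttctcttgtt
MRPS10: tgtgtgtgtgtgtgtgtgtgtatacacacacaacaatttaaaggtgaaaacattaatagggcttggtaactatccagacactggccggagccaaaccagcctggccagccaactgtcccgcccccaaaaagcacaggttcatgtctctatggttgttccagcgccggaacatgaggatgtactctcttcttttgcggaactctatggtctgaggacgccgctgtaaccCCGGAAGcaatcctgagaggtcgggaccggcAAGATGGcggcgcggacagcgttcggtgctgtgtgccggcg
Of the 69 windows, 29 held the ETS letters (42.0%), against 14.4% of 15319 promoters of protein-coding genes and 10.7% of all 27305 promoters in the table. The YY1 letters were in 23 windows (33.3%), against 6.43% and 6.06%. For the NRF1 core the count was 14 (20.3%), against 10.8% and 8.42%, and the full NRF1 motif was found in 1 window (1.45%, against 1.72% of protein-coding promoters). The SP1 letters did not set the genes apart, with 42 windows (60.9%) against 59.3% of protein-coding promoters. The letters TATAAA, at any position of the window and on either strand, were in 2 windows (2.90%, against 9.60%). ETS and YY1 letters stood together in 9 windows (13.04%), against 1.28% of protein-coding promoters. The matches also lay close to the start: 27 of 39 ETS matches and 17 of 24 YY1 matches were within 50 bases of it (69.2% and 70.8%), where the shares over all protein-coding promoters were 54.0% and 53.7%. The YY1 letters read AAGATGG on the strand of the gene in 20 of the 24 matches (83.3%, against 66.6% over all protein-coding promoters). These letters contain ATG, and the part of translation starts in their position and strand was not tested. Median GC content was 60.3% in these windows and 63% in protein-coding promoters. A match is a description of letters and shows no binding.

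Between 5983066 and 11707612 reads per library were assigned to genes. Genes of the sympathoadrenal lineage from which neuroblastoma arises were read in every library (PHOX2A between 498 and 631 CPM and GATA3 between 924 and 1342 CPM, where CPM is the count scaled to library size after TMM normalization), although TH, the dopamine-synthesis enzyme of that lineage, had 29 counts in all. The summed level of 10 such markers was 3740 and 3167 CPM in the untreated libraries, 3603 and 3074 CPM at 0.5 h and 3475 and 2767 CPM at 24 h. For 10 mesenchymal and Schwann cell markers the sum was between 72.3 and 82.8 CPM with SOX10 at 0, and for 7 blood and endothelial markers between 12.2 and 15.95 CPM. The part of these shifts in the results below was not tested. In bulk libraries, fewer cells of a type and less RNA per cell cannot be told apart, and CPM values are relative to the library, so a change common to all genes would not show.

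Not every member could be measured. Across protein-coding genes with a model, 97.9% of the 1800 with no base of their own (every base also lies within another gene, on either strand) were at 0 in all libraries, compared with 3.50% of the 17519 with over 500 bases of their own. Among 1083 genes that have no base of their own on both strands together but over 500 on their own strand, 99.3% were at 0, and so were 98.5% of 1538 genes that share their whole span but hold over 500 exon bases of their own. The zeros thus followed the overlap of whole gene spans on either strand. Reads may therefore have been counted without regard to strand. In that case, the values of the measured genes also hold reads of the opposite strand within their bases, antisense or divergent. The part of such reads was not tested. Of the 78 mitochondrial ribosomal protein genes, 13 were listed at 0 in every library. They were the large-subunit genes MRPL2, MRPL30, MRPL34, MRPL38, MRPL40, MRPL49 and MRPL53 and the small-subunit genes MRPS11, MRPS12, MRPS16, MRPS17, MRPS24 and MRPS28. All of these but MRPL53, with 28 bases, had no base of their own. MRPL2 lay wholly within KLC4, MRPL34 within ABHD8, MRPL40 within HIRA, MRPL49 within SYVN1 and MRPS17 within NIPSNAP2, and MRPS24 within the readthrough gene URGCP-MRPS24. MRPL46 and MRPL12 had 2 and 4 counts over all libraries, on 25 and 14 bases of their own. MRPL12, a protein of the stalk that recruits translation factors and a binding partner of the mitochondrial RNA polymerase, overlapped the gene AC139530.2 over 99.7% of its length. A value of 0 for any of these 15 genes is no measure of their transcription.

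**Figure D1:**
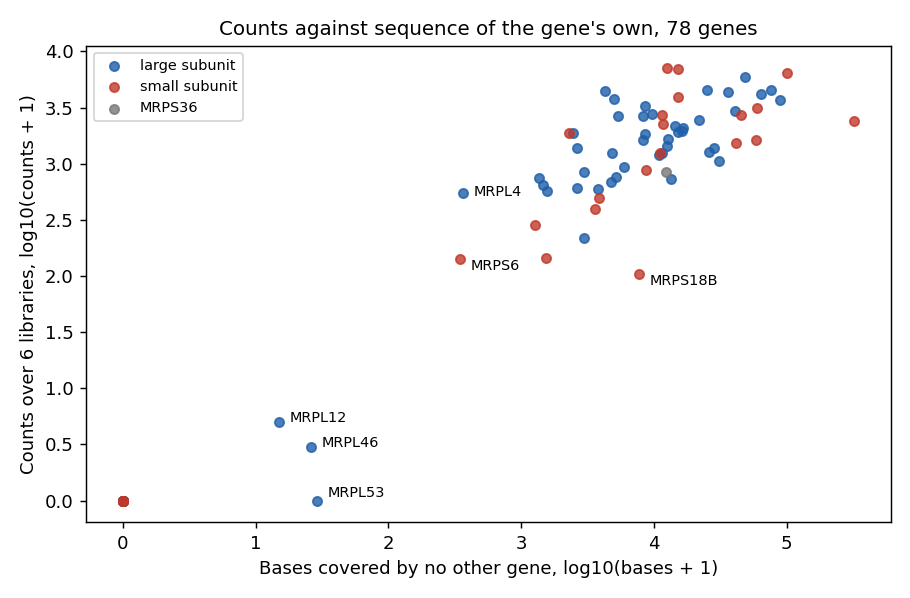
Each point is 1 of the 78 genes, with the bases covered by no other gene on the horizontal axis (log10 of bases + 1) and the counts summed over the 6 libraries on the vertical axis (log10 of counts + 1), coloured by subunit. The 15 genes with under 10 counts have at most 28 bases of their own, and the measured gene with the fewest is MRPS6 with 346.

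The other 63 genes passed the filter on low counts (42 large-subunit, 20 small-subunit and MRPS36) with mean counts per library between 17.3 and 1196 and a median of 270. For 48 of the 78 genes at least 90% of the span was free of other genes. For MRPL4 and MRPS6, on the other hand, the 367 and 346 bases that could be counted were the first bases of the gene, so their values come from the region next to the start site, where polymerase can pause. The rest of MRPL4 is covered by the antisense gene LIMASI (95.5% of its length) and the rest of MRPS6 by AP000317.2 (99.5%). Pseudogenes were a smaller concern for most genes. The tables held 80 pseudogenes of this family, 26 of them with counts, with 5606 counts in all against 132667 on the 78 genes. Most of those counts fell on copies of MRPL42 (2836 counts, against 5935 on the gene) and MRPL45 (2448 counts, against 1266 on the gene), so the values of these 2 genes are uncertain to the extent that reads were split between copies.

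Per kilobase of countable sequence, the genes spanned a wide range of levels. Mean levels over the 6 libraries ran from 0.1465 to 28.9 CPM per kb with a median of 2.62 and a middle range of 1.44 to 5.66, while 15119 protein-coding genes had a median of 1.08 (middle range 0.386 to 2.39), and 77.3% of them lay below the median of the mitochondrial ribosomal protein genes. The highest levels were those of MRPL4 (28.9 ± 6.42 CPM per kb, SD over 6 libraries), MRPL24 (20.4 ± 1.69), MRPS26 (16.1 ± 1.75), MRPL57 (15.3 ± 1.66) and MRPL20 (15.1 ± 0.668). All 5 are structural proteins of the ribosome, and the level of MRPL4 is that of its first 367 bases. MRPS26, MRPL57 and MRPL20 did not differ from each other beyond their spread. At the low end stood MRPS31 (0.737 ± 0.0222), MRPL11 (0.674 ± 0.0851), MRPS9 (0.548 ± 0.0450), MRPS18B (0.267 ± 0.0666) and MRPS22 (0.1465 ± 0.0116). The level of MRPS22 rests on a gene model of 351418 bases that begins at position 139005806 of chromosome 3, whereas the RefSeq start window printed above begins at 139343744. That of MRPL11, on the minus strand, rests on a model from 66435075 to 66466738 of chromosome 11. Its RefSeq start window lies inside the model, at 66438799 to 66439098, so most of its countable bases precede that start. Both levels depend on the model used. The 5 highest genes had between 367 (MRPL4) and 4974 (MRPL20) countable bases. Among the 5 lowest, MRPS18B had 7783 and the others between 30904 (MRPL11) and 322054 (MRPS22). The median span was 11937 bases for the 78 genes and 27136.5 for all protein-coding genes. Levels were not matched for length, and the part of length in these differences was not tested. Large-subunit genes had a median of 2.92 CPM per kb and small-subunit genes of 2.22. With the YY1 letters in the promoter the median was 2.42 over 17 tested genes and without them 3.79 over 39, and for the ETS letters the medians were 3.13 over 23 genes and 2.425 over 33.

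**Figure D2:**
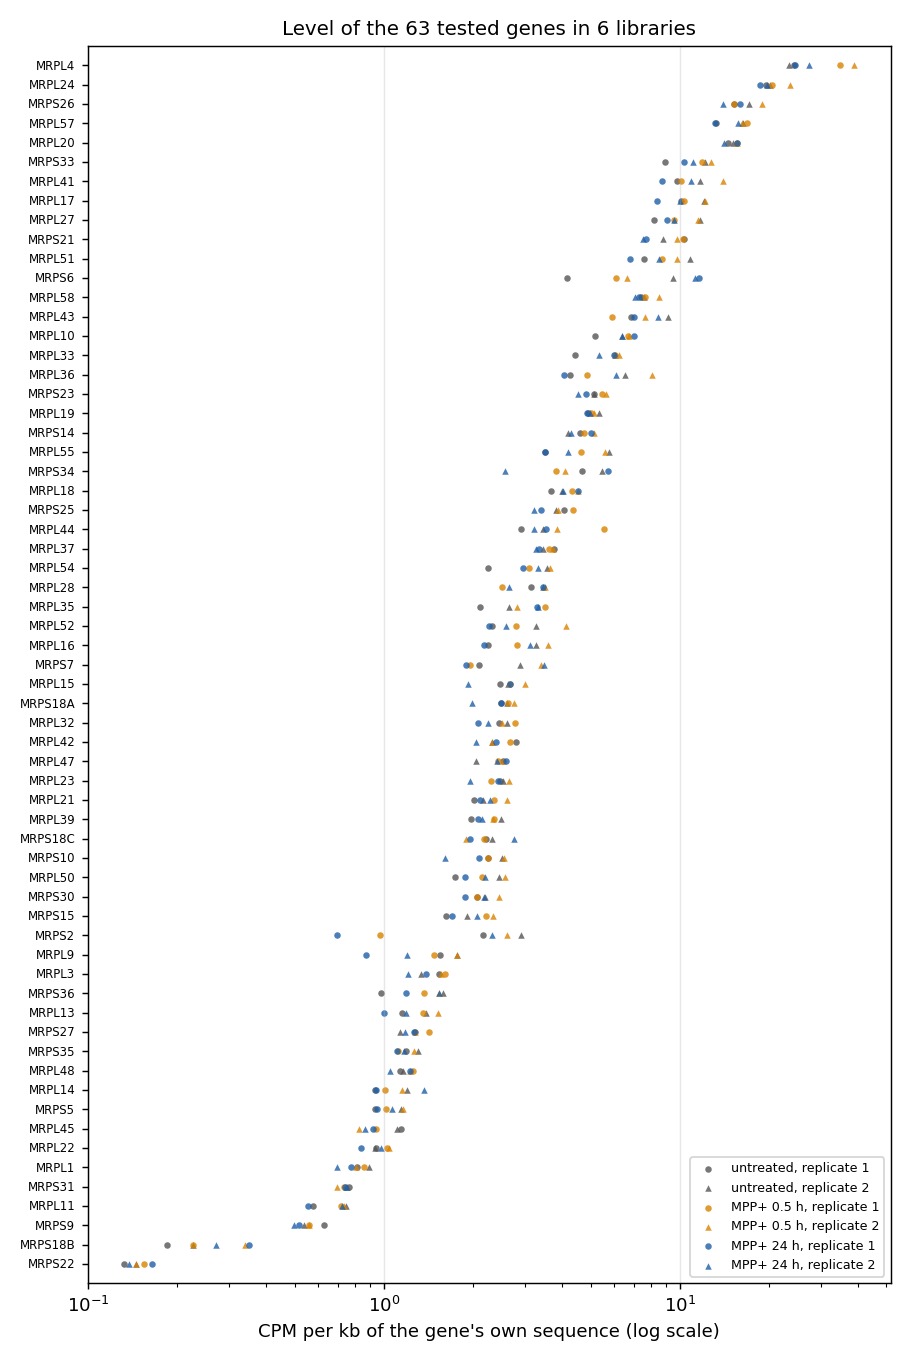
Levels of the 63 tested genes in CPM per kb of countable sequence (log axis), ordered by their mean, with 1 point per library coloured by group (circle replicate 1, triangle replicate 2). The spread between genes, from 0.1465 for MRPS22 to 28.9 for MRPL4, is wider than the spread between the libraries of any 1 gene.

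Together the 78 genes took 0.248% and 0.274% of the assigned counts in the untreated libraries, 0.267% and 0.2845% at 0.5 h and 0.246% and 0.253% at 24 h. The exact Clopper-Pearson 95% intervals, which cover counting error only, were at most as wide as 0.249% to 0.257% (second 24 h library). The group means were 0.261% ± 0.0188 (SD, n = 2) in untreated cells, 0.276% ± 0.0124 at 0.5 h and 0.249% ± 0.00474 at 24 h. The untreated range overlapped both others, while both 24 h libraries lay below both 0.5 h libraries. In each group the second replicate had the higher share. The same order held for the median gene: its log2 deviation from the mean over all libraries was -0.054 and 0.097 in untreated cells, 0.031 and 0.14 at 0.5 h and -0.084 and -0.050 at 24 h, with an SD within groups of 0.078.

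At 0.5 h of MPP+, the mitochondrial ribosomal protein genes were shifted slightly upwards as a group and none passed the test. Their median log2 fold change against untreated cells was 0.10 (1.07-fold), against 0.0082 over all 23133 tested genes, and it was 0.019 without the first untreated library and 0.033 without the second 0.5 h library. Of the 63 genes, 47 were above 0 (74.6%, against 52.1% of all genes). In the quasi-likelihood test of edgeR with Benjamini-Hochberg adjustment, 0 of 63 reached an adjusted p under 0.05, with 0.0735% of all tested genes called, every one of them lower. DESeq2 also called 0 (0.0569% of all genes). At an unadjusted p under 0.05, edgeR gave 4 genes (against 2.46% of all genes), of which 3 were higher (4.76%, against 1.05%) and 1 was lower (1.59%, against 1.41%). DESeq2 gave 3, MRPL4, MRPL35 and MRPL44 (against 0.424%). In 21 genes both 0.5 h libraries exceeded both untreated ones (33.3%, against 12.9% of all genes). The reverse held for 4, MRPL45, MRPS18C, MRPS31 and MRPS34 (6.35%, against 14.4%). In the fit without the replicate number as a block, the median standard error was 0.14 per gene on the log2 scale. Changes of the size of the median were below what that fit, with 2 libraries a group, could resolve for 1 gene.

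MRPL4, a large-subunit protein with a bacterial counterpart (chromosome 19, 10251901 to 10260045), had the largest positive value at 0.5 h. It was at 8.95 and 8.56 CPM in untreated cells, 12.8 and 14.3 CPM at 0.5 h and 9.003 and 10.1 CPM at 24 h. Both 0.5 h libraries were above the other 4, and the log2 fold change was 0.62 ± 0.19 (SE), with an adjusted p of 0.9997 in edgeR. MRPL44, a mitochondria-specific protein with an RNase III-like fold (chromosome 2, 223957404 to 223967714), was at 24.1 and 28.7 CPM untreated, 46.0 and 31.85 CPM at 0.5 h and 29.3 and 26.6 CPM at 24 h. Both 0.5 h libraries of MRPL44 were above the other 4 but far apart, and the untreated and 24 h groups overlapped. Its log2 fold change at 0.5 h of 0.56 ± 0.19 ranged from 0.27 to 0.79 as single libraries were left out. MRPL35, another large-subunit protein with a bacterial counterpart (chromosome 2, 86199355 to 86213794), was at 30.5 and 38.1 CPM untreated, 50.55 and 40.7 CPM at 0.5 h and 47.4 and 47.9 CPM at 24 h. All 4 treated libraries were thus above both untreated ones, with log2 fold changes of 0.41 ± 0.15 at 0.5 h and 0.47 ± 0.15 at 24 h (adjusted p = 0.9997 and 0.557 in edgeR). At 24 h the adjusted p was 0.0519 with the replicate number as a block. Among members with a mean of at least 50 counts, the next largest values at 0.5 h were those of MRPS15 (0.36 ± 0.18) in the small subunit and MRPL52 (0.29 ± 0.24) in the large one.

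Among members with a mean of at least 50 counts, negative values at 0.5 h were smaller. The lowest was that of MRPL45, the protein through which the ribosome is anchored to the inner membrane near its exit tunnel (chromosome 17, 38297023 to 38323218). It was at 30.0 and 28.97 CPM untreated, 24.7 and 21.6 CPM at 0.5 h and 24.2 and 22.6 CPM at 24 h. Again all 4 treated libraries were on 1 side of the untreated ones, with log2 fold changes of -0.35 ± 0.14 and -0.33 ± 0.15 and adjusted p values of 0.9997 and 0.611 in edgeR. Its pseudogene copies carried more counts than the gene, as given above. The next lowest at that depth were MRPL43 (-0.26 ± 0.23), MRPS18C (-0.15 ± 0.24), MRPL28 (-0.15 ± 0.23) and MRPS31 (-0.079 ± 0.12), all structural proteins of the ribosome. For these 4 the interval of the fold change included 0. On fewer counts, MRPS2 (-0.56 ± 0.53) and MRPS34 (-0.37 ± 0.33), named here after their values were seen, were lower with wider errors.

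After 24 h of MPP+, the genes as a group stood slightly below untreated cells. Again none passed the test without the replicate number as a block. The median log2 fold change was -0.066 (0.956-fold), against 0.0023 over all genes. It was -0.18 without the first untreated library, -0.0073 without the second, -0.034 without the first 24 h library and -0.11 without the second. Values were below 0 in 42 of 63 genes (66.7%, against 49.6% of all genes). In edgeR with Benjamini-Hochberg adjustment 0 of 63 were called, with 0.0692% of all tested genes called, and DESeq2 called 0 (0.0854% of all genes). At an unadjusted p under 0.05, edgeR gave 4 genes (6.35%, against 8.1% of all genes). MRPL35 was the 1 higher (against 4.01%), and MRPS21, MRPL45 and MRPL9 were lower (4.76%, against 4.09%). DESeq2 gave 2, MRPL35 and MRPS21 (against 2.15%). Both 24 h libraries lay below both untreated ones in 16 genes (25.4%, against 18.5% of all genes) and above them in 6 (9.52%, against 18.8%).

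MRPS21, a small-subunit protein with a bacterial counterpart and one of the most deeply read members at 7009 counts in all (chromosome 1, 150293720 to 150308979, free of other genes), was at 158 and 134 CPM untreated, 156 and 149 CPM at 0.5 h and 118 and 114.5 CPM at 24 h. Both 24 h libraries were below the other 4, which overlapped among themselves. The log2 fold change at 24 h was -0.33 ± 0.11 against untreated cells, with an adjusted p of 0.567 in edgeR. With the replicate number as a block, MRPS21 was the 1 member called at 24 h against untreated cells (adjusted p = 0.0218), in a fit that called 2.96% of all genes. The same fit called 3 of 9 tested sympathoadrenal markers, ISL1, TFAP2B and GATA3, all lower (log2 fold changes of -0.31, -0.24 and -0.23, adjusted p = 0.0125, 0.0247 and 0.0223 in edgeR), and none of them was called without the block. Their part in the result was not tested. MRPS10, also a small-subunit protein, was at 25.0 and 27.8 CPM untreated, 24.8 and 28.3 CPM at 0.5 h and 23.2 and 17.9 CPM at 24 h. Its 24 h libraries were the lowest 2 of the 6, at -0.35 ± 0.17. MRPL9, a large-subunit protein named here after its values were seen, had a mean of 36.2 counts and a log2 fold change of -0.71 ± 0.29. MRPL55 (-0.29 ± 0.26) and MRPL51 (-0.29 ± 0.23) overlapped between groups. On the positive side, MRPL10, a protein of the stalk base, was at 42.7 and 52.66 CPM untreated and 57.8 and 52.76 CPM at 24 h (0.21 ± 0.12). MRPL18 (0.16 ± 0.13), MRPL47 (0.13 ± 0.14) and MRPS22 (0.12 ± 0.13) had smaller values, and those of MRPL47 and MRPS22 overlapped between groups.

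The median shift was widest between the 2 treated groups. Between 24 h and 0.5 h, the median log2 fold change was -0.17 (0.887-fold), against 0.0029 over all genes, and -0.088 without the second 0.5 h library. Of the 63 genes, 51 were below 0 (81.0%, against 49.5% of all genes). Without the replicate number as a block, no gene of any kind was called by edgeR with Benjamini-Hochberg adjustment (0.0% of all tested genes) or by DESeq2. Of the 63, 10 had an unadjusted p under 0.05 in edgeR (15.9%, against 6.42% of all genes), 9 of them lower (14.3%, against 3.62%), and 3 did in DESeq2 (MRPL13, MRPL44 and MRPS21, against 1.47%). The 1 higher (against 2.8%) was MRPS6, counted on 346 bases with a mean of 23.3 counts and named here after its values were seen (0.85 ± 0.36). Both 24 h libraries were below both 0.5 h libraries in 30 genes (47.6%, against 19.0% of all genes) and above them in 2, MRPS31 and MRPS6 (3.17%, against 19.4%). Within replicate 1 the median was -0.13 and within replicate 2 it was -0.20, and 43 genes were lower within both (68.3%, against 31.2%). Among the 21 members with a mean of at least 400 counts, a limit chosen after other results were seen, all 21 were below 0 with values between -0.41 and -0.0052, where 3781 of 6324 genes of that depth were. This comparison shares its 0.5 h libraries with the first one and its 24 h libraries with the second, so a gene that was high in the 0.5 h libraries enters both with opposite signs, and the comparisons do not support each other.

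Among members with a mean of at least 50 counts, MRPL52, a mitochondria-specific large-subunit protein, had the largest negative value, with 14.4 and 21.3 CPM at 0.5 h and 11.7 and 13.3 CPM at 24 h (-0.51 ± 0.25). The value of MRPL9, on fewer counts, was -0.66 ± 0.28. The untreated libraries of MRPL52, at 12.0 and 16.9 CPM, overlapped both treated groups. MRPL4 (-0.50 ± 0.19) and MRPL44 (-0.48 ± 0.19) followed, with the values by library given above. MRPL13, a large-subunit protein with a bacterial counterpart (chromosome 8, 120380761 to 120445402), was at 74.6 and 89.95 CPM untreated, 87.9 and 98.8 CPM at 0.5 h and 64.6 and 76.6 CPM at 24 h. The replicate 2 library was the higher 1 in each group, and the treated groups did not overlap. Its log2 fold change from 0.5 h to 24 h was -0.41 ± 0.13, and that of MRPS21 was -0.40 ± 0.11, each with an adjusted p of 0.754 in edgeR. With the replicate number as a block, these were the 2 members called (adjusted p = 0.0143 for MRPL13 and 0.00983 for MRPS21), in a fit that called 1.78% of all genes and 1 of the 9 markers, ISL1 (-0.40, adjusted p = 0.00389). MRPL55 (-0.41 ± 0.26) did not overlap between the treated groups either. The largest positive values with at least 50 counts on average were those of MRPL43 (0.20 ± 0.23), MRPS18C (0.19 ± 0.24), MRPL14 (0.083 ± 0.23), MRPL35 (0.058 ± 0.15) and MRPS31 (0.054 ± 0.13), and each interval included 0.

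**Figure D3:**
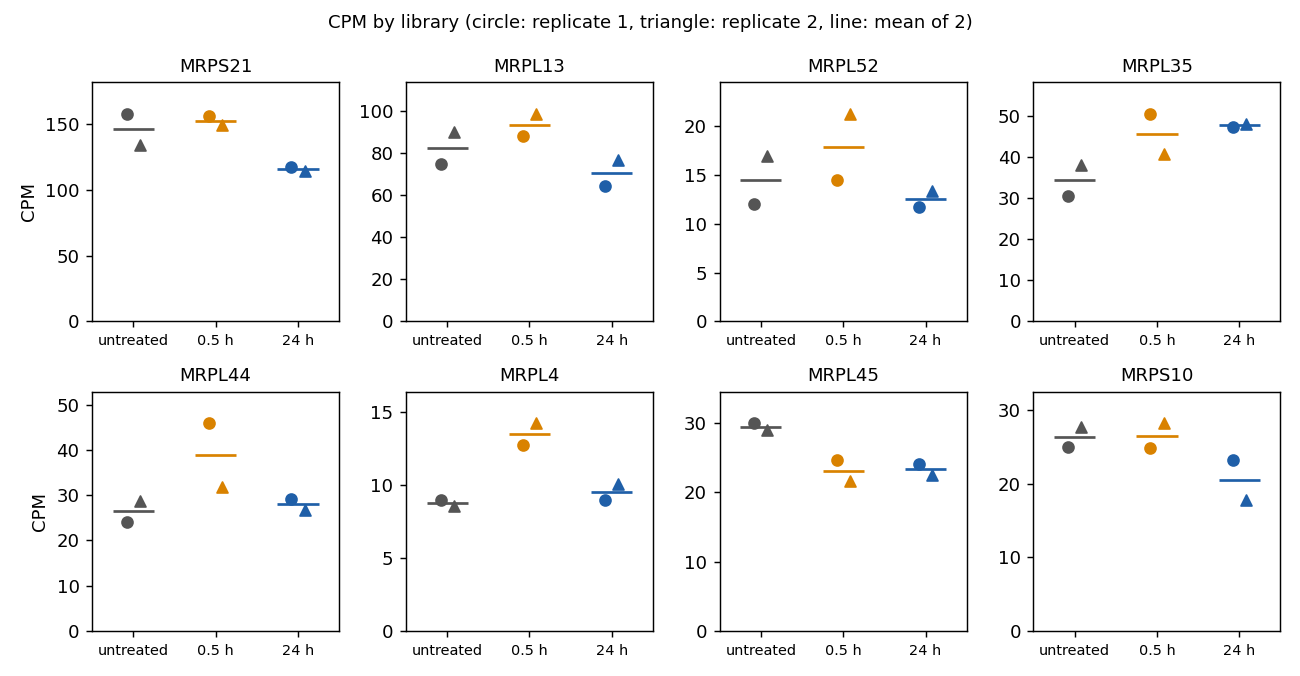
CPM of 8 genes named in the text in each library (circle replicate 1, triangle replicate 2), with lines at the mean of the 2 libraries and axes that start at 0. MRPS21 is lowest in both 24 h libraries, MRPL35 is higher and MRPL45 lower in all 4 treated libraries than in both untreated ones, and MRPL4 and MRPL44 are highest at 0.5 h.

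**Figure D4:**
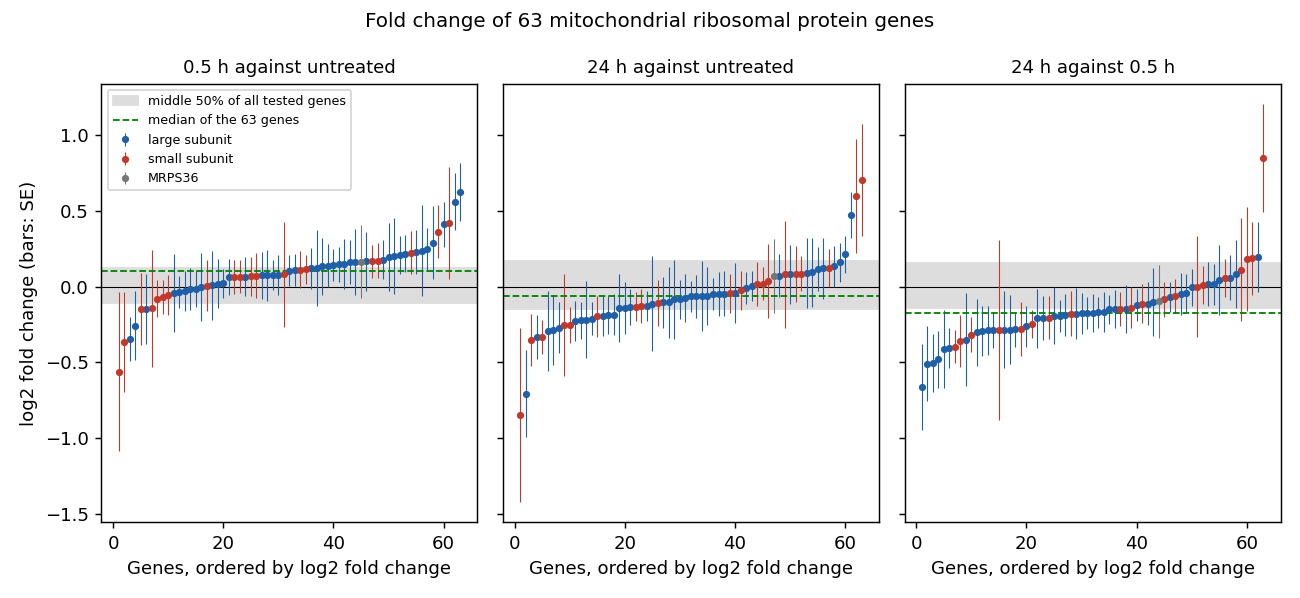
Log2 fold changes of the 63 tested genes in the 3 comparisons, each ordered by value, with bars for the standard error, a dashed line at their median and a grey band for the middle 50% of all 23133 tested genes. The medians are 0.10, -0.066 and -0.17, and no single gene passed the test without the replicate block.

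The medians of the large and the small subunit had the same sign in each comparison, and that of the small subunit was nearer to 0. At 0.5 h against untreated cells the median log2 fold change was 0.12 over 42 large-subunit genes (33 above 0) and 0.067 over 20 small-subunit genes (13 above 0). At 24 h it was -0.079 (31 below 0) and -0.036 (11 below 0), and between 24 h and 0.5 h it was -0.18 (36 below 0) and -0.13 (14 below 0). The difference between the subunits was not tested, and with single libraries left out the 0.5 h medians ranged from 0.027 to 0.19 in the large and from -0.040 to 0.086 in the small subunit. Genes with a bacterial homologue and mitochondria-specific genes had medians of 0.100 and 0.090 at 0.5 h, -0.063 and -0.079 at 24 h, and -0.18 and -0.16 between the times. MRPS36, outside the ribosome, had log2 fold changes of 0.16 ± 0.24, 0.067 ± 0.24 and -0.098 ± 0.24. Promoter letters were set beside the same values. Between 24 h and 0.5 h the median was -0.17 with and -0.18 without the ETS letters, -0.19 with and -0.17 without the YY1 letters, and -0.13 with and -0.17 without the NRF1 core. The tested genes with at least 90% of their span free of other genes (48) had medians of 0.12, -0.079 and -0.18 in the 3 comparisons.

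A head-to-head neighbour was more frequent among these genes than among all protein-coding genes, though most of them had none. For 29 of the 78 (37.2%) the start site lay within 1000 bases of that of a protein-coding gene on the opposite strand that runs the other way, compared with 12.9% of 19914 protein-coding genes. These made 30 pairs, of which 16 had start sites within 100 bases. MRPL46 and MRPS11 were each other's neighbour and are counted once from each side. MRPL32 is counted with both AC010132.3 and PSMA2. The start sites of the pairs are ends of GENCODE 29 models. For some genes, such as MRPL11 (neighbour PELI3) and MRPS22 (neighbour PRR23A), that end lies away from the RefSeq start window, as given above. In 21 pairs both genes were tested, MRPL11 and PELI3 among them. Between 24 h and 0.5 h the ribosomal protein gene of these pairs had a median log2 fold change of -0.18 (5 of 21 above 0), and the neighbour -0.041 (9 of 21 above 0). MRPL13 stood at -0.41 ± 0.13 while MTBP, whose span overlaps it by 3 bases at the start, stood at -0.060 ± 0.11. For MRPL52 the value was -0.51 ± 0.25 and for its neighbour SLC7A7, an amino acid transporter gene, 0.069 ± 0.13. The neighbour of MRPL36 is NDUFS6, a gene for a complex I subunit, with values of -0.35 ± 0.30 and -0.064 ± 0.14. MRPL43 pairs with TWNK, the gene of the mitochondrial DNA helicase, and their values were 0.20 ± 0.23 and -0.24 ± 0.13. MRPL57 and SKA3, a kinetochore gene, were both below 0 (-0.21 ± 0.15 and -0.44 ± 0.14). In this comparison 11 of 21 pairs had the same sign, and Pearson's r over the 21 pairs was 0.086. At 0.5 h against untreated cells the medians were 0.16 and 0.0022 with 11 pairs of the same sign and r = 0.42, and at 24 h -0.048 and -0.011 with 18 pairs and r = 0.42. These are descriptions over pairs that share all libraries. If strand was not used in counting, each value may also hold reads of the opposite strand near the start, and this was not tested.

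**Figure D5:**
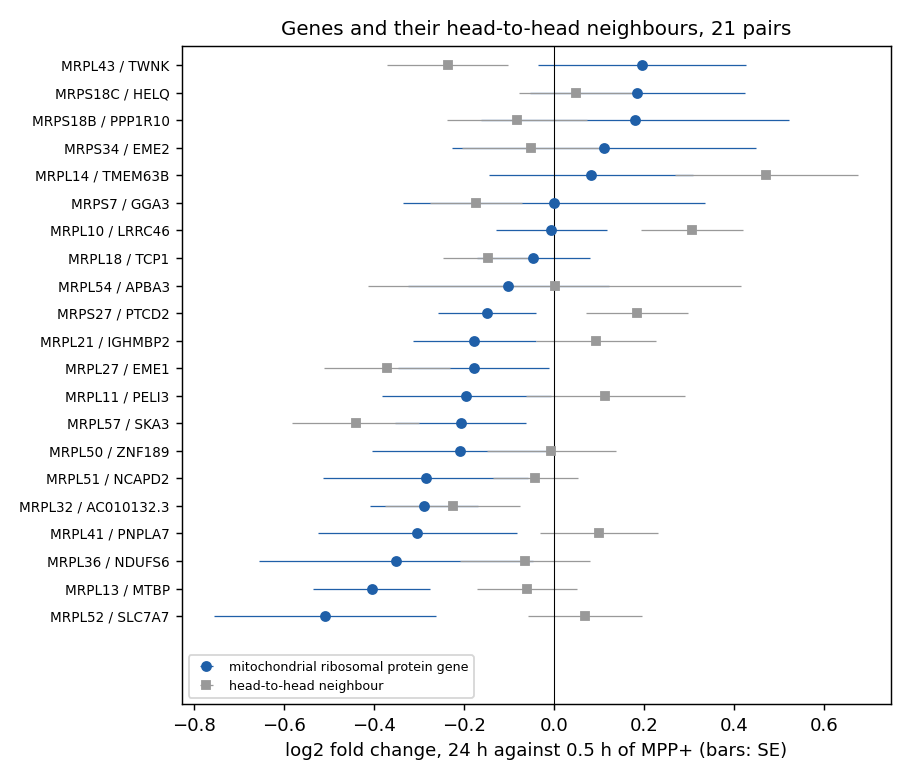
Log2 fold change between 24 h and 0.5 h of MPP+ for 21 pairs of a mitochondrial ribosomal protein gene (blue circle) and its head-to-head neighbour (grey square), ordered by the former, with bars for the standard error. The ribosomal protein gene is below 0 in all but 5 pairs, and 9 neighbours are above 0.

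Reads over the genes of the rRNAs that these proteins assemble with behaved differently. The amount of the rRNAs themselves was not measured. MT-RNR1, the small-subunit rRNA gene of mitochondrial DNA, was at 90.8 and 73.5 CPM untreated, 16.6 and 21.8 CPM at 0.5 h and 10.7 and 10.55 CPM at 24 h. It fell by 2.10 ± 0.16 and by 2.95 ± 0.18 on the log2 scale (adjusted p = 0.0012 and 0.0004 in edgeR). MT-RNR2, the large-subunit rRNA gene, fell by 2.08 ± 0.15 and by 2.45 ± 0.16 (adjusted p = 0.00112 and 0.0004). No mitochondrial ribosomal protein gene had a change of that size in either comparison, the most extreme values among the 63 being -0.85 (MRPS2) and 0.70 (MRPS6), both at 24 h.

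Other nuclear genes for mitochondrial translation were also without calls in edgeR with Benjamini-Hochberg adjustment. Mitoribosomal proteins with other names numbered 5, all tested, with medians of 0.10 at 0.5 h and -0.063 at 24 h against untreated cells and -0.12 between the times. They included DAP3, a GTP-binding small-subunit protein (-0.073 ± 0.097 at 24 h), PTCD3 (0.10 ± 0.098 at 0.5 h), CHCHD1 (0.24 ± 0.36 at 0.5 h), GADD45GIP1 (-0.084 ± 0.10 at 24 h) and AURKAIP1 (0.12 ± 0.28 and 0.24 ± 0.29). Assembly and rRNA modification factors were tested in 21 of 25 cases, with DDX28, RBFA, MRM2 and NGRN at 0, and had medians of 0.050, -0.056 and -0.18. The assembly factors with the smallest unadjusted p were MTERF4, MTERF3 and METTL17 at 0.5 h (0.35 ± 0.15, 0.28 ± 0.15 and 0.27 ± 0.14) and DHX30, ERAL1 and MTG1 at 24 h (-0.26 ± 0.11, -0.59 ± 0.31 and -0.90 ± 0.53). Of 18 genes in a list of translation factors and associated proteins, such as OXA1L, LRPPRC and SLIRP, 15 were tested (TUFM, TSFM and PDF were at 0). Their medians were 0.10, 0.025 and -0.072. The rescue factor MTRES1, the elongation factor GFM1 and the initiation factor MTIF3 stood at 0.20 ± 0.12, 0.18 ± 0.15 and 0.18 ± 0.15 at 0.5 h, and GFM2, OXA1L and GUF1 at 0.21 ± 0.13, -0.28 ± 0.22 and -0.33 ± 0.33 at 24 h. Mitochondrial aminoacyl-tRNA synthetases were tested in 13 of 17 cases, with AARS2, MARS2 and VARS2 at 0, and had medians of 0.034, -0.14 and -0.14. Among these, IARS2 and LARS2 stood at 0.15 ± 0.098 and -0.12 ± 0.093 at 0.5 h, and HARS2, LARS2 and WARS2 at -0.47 ± 0.19, -0.18 ± 0.094 and -0.31 ± 0.17 at 24 h. At an unadjusted p under 0.05 against untreated cells, these 4 lists, with 54 tested genes, held 1 gene at 0.5 h (MTERF4; 1.85%, against 2.46% of all genes) and 2 at 24 h (DHX30 and HARS2; 3.70%, against 8.1%). Between 24 h and 0.5 h they held 6 (11.1%, against 6.42%), of which 2 were assembly factors, 1 was from the translation factor list and 3 were synthetases. Of the 6, 5 were lower.

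The authors' deposited table for 0.5 h listed 17 genes and that for 24 h listed 24, each with 14 genes of mitochondrial DNA, and no mitochondrial ribosomal protein gene was in either.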

How the data were processed

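PRO-seq reads from 6 SH-SY5Y libraries were analysed from the deposited tables. The members and gene lists were chosen with earlier results of these data known. The authors deposited 1 table of raw read counts per gene for every library. The submitters' processing notes name hg38 as the build and list featureCounts 2.0.1, Bowtie2 2.4.2, DESeq2 2.11.40.6, cutadapt 1.16.5, deepTools 3.5.1.0.0 and SAMtools 1.13. How counting treated strand and feature type, and which annotation release it used, is not given in the sources used here. Per gene, the authors' deposited tables of differential genes give a mean normalized count (a signal), the Wald statistic (a score), log2 fold change, standard error and raw and adjusted p-value, and all genes listed have an adjusted p under 0.05. They were used only to look up members.

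Symbols were taken from a gene name table for 60437 of 67051 identifiers, and gene types and spans from GENCODE 29 for 58464. A filter by group (filterByExpr) kept 23133 genes. In edgeR 4.0.16 (R 4.3.3), 1 quasi-likelihood fit with TMM factors took all 6 libraries, with a mean for every group, which left 3 residual degrees of freedom. P-values are from its two-sided F test. They were corrected over the whole table with the Benjamini-Hochberg method, and 0.05 was the threshold. The fitting script was tested on simulated data. CPM per kb divides CPM by the bases of a gene that no other gene covers. Library depth was between 5983066 and 11707612 assigned counts. A gene that can be counted in full and is at 0 could hold up to 3 counts, or between 2.56e-05% and 5.01e-05% of a library. The members at 0 get no such limit, because their zeros followed the overlap with other genes.

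Same-numbered libraries deviated together: across genes with a mean of at least 50 counts, the difference of replicate 1 minus replicate 2 correlated at 0.50 between untreated and 0.5 h, 0.49 between untreated and 24 h and 0.52 between 0.5 h and 24 h. The labels give the numbers but no shared culture or day, and the numbers were taken as pairing the libraries on these correlations. For members, and for the markers at 24 h, values with the replicate block are printed where they change a call. All standard errors and counts at an unadjusted p are from fits without the block. Over all genes the block moved the calls from 17 to 57 at 0.5 h, from 16 to 685 at 24 h and from 0 to 412 between the times. The 2 libraries of each group differed by more than sampling noise (chi-square per degree of freedom 5.18, 8.24 and 3.85).

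Genes were named by rule: those past the threshold, the 5 largest positive and negative fold changes per comparison among members with a mean of at least 50 counts, the 5 highest and lowest levels, those not tested, up to 3 genes per related list with the smallest p against untreated cells, and both mitochondrial rRNA genes. A gene that this rule names is not reported here. Promoter sequences are those of RefSeq on GRCh38.p14, main chromosomes only. Alternatives were RLE and upper-quartile scaling, no filter, a filter at a mean of 50 counts, DESeq2 1.42.0, the replicate block, fits of only the groups compared, and each library left out.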

Additional observations from a re-analysis of the deposited data

How the results depend on the processing

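No member was called under RLE or upper-quartile scaling, without a filter on low counts, with a filter at a mean of 50 counts, with DESeq2, in fits of only the groups compared or with any 1 library left out. With the replicate block the number of members called lower was 1 at 24 h against untreated cells (MRPS21, log2 fold change -0.33, adjusted p = 0.0218) and 2 between 24 h and 0.5 h (MRPS21, and MRPL13 at -0.41 with adjusted p = 0.0143). Apart from the markers ISL1, TFAP2B and GATA3, given above, the block changed no other call of a named gene. The medians kept their sign under those settings, except that of the small subunit at 0.5 h with 1 library left out. With 1 library left out at a time, the median of all members ranged from 0.019 to 0.15 at 0.5 h, from -0.18 to -0.0073 at 24 h and from -0.21 to -0.088 between the times. In the large subunit it ranged from 0.027 to 0.19, from -0.19 to -0.0041 and from -0.22 to -0.11, and in the small subunit from -0.040 to 0.086, from -0.13 to -0.033 and from -0.18 to -0.024. Named genes whose sign turned were, at 0.5 h, MRPL52 (-0.0093 to 0.56), MRPL28 (-0.41 to 0.085), CHCHD1 (-0.20 to 0.93), AURKAIP1 (-0.26 to 0.45) and MTIF3 (-0.011 to 0.40). At 24 h they were MRPL47 (-0.027 to 0.29), MRPS22 (-0.019 to 0.24), MRPL55 (-0.60 to 0.11), OXA1L (-0.60 to 0.00046) and GUF1 (-0.75 to 0.045), and between the times MRPS18C (-0.068 to 0.43), MRPL14 (-0.19 to 0.34) and MRPL35 (-0.087 to 0.23). The cause was not tested. Depth limits MRPS18B, MRPS6 and MRPS2 most, with mean counts of 17.3, 23.3 and 24.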
